A study of Mus musculus with 8 samples.

Results

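The genes described here make, export, load or regulate microRNAs in mouse embryonic stem cells: Mir17hg, Lin28a, Lin28b, Dicer1, Drosha, Dgcr8, Ago1, Ago2 and Xpo5, with the miR-290 cluster on chromosome 7. What was measured is how accessible the chromatin is, with ATAC-seq: a transposase, Tn5, inserts sequencing adapters where DNA is open. The members are the accessible regions (peaks, each 201 bp wide) whose centre lay inside the GRCm38 span of one of the 9 genes or within 50 kb of it, plus those of a 50 kb window around the miR-290 cluster (from chr7:3192101-3192301 to chr7:3237600-3237800). They came to 187 of the 134407 peaks in the deposited table. Of these, 106 had no protein-coding gene nearer than the member, and 81 lay nearer to another protein-coding gene, which is named where such a peak is described. Among the 106, 6 had a nearer lncRNA or pseudogene, of which 2 were called.

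All 8 libraries were from the E14 line of mouse embryonic stem cells, grown on gelatin in serum with LIF, each made from 50000 live cells. The 4 control libraries came from cells in that medium. The 4 paused libraries came from cells that also received INK128 at 200 nM for 24 h. INK128 inhibits the kinase mTOR and is known to bring such cells into a slowly dividing, paused state. Both groups are labelled wild type, and E14 is 1 line, so the spread between libraries holds no spread between lines. Nothing in the labels says that replicates came from separate cultures, so the p-values measure the spread between these libraries, which may be technical. In bulk libraries, a site that is open in more cells and a site that is open more of the time in each cell cannot be told apart.

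MicroRNAs are cut from long transcripts in steps. Drosha, an RNase III enzyme, and its partner Dgcr8 form the Microprocessor, which cuts the hairpin out of the primary transcript in the nucleus. Xpo5 (exportin 5) carries the hairpin to the cytoplasm, Dicer1 cuts it to a short duplex, and an Argonaute protein (Ago1, Ago2) holds 1 strand as the guide against target mRNAs. Lin28a and Lin28b are RNA-binding proteins that block the maturation of let-7, a microRNA family of differentiated cells. The miR-290 cluster makes some of the most abundant microRNAs of mouse embryonic stem cells, and the miR-17-92 cluster, made from Mir17hg, is a target of Myc.

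The mature sequences show why these 2 clusters are described together. A microRNA finds its targets mostly through its seed, bases 2 to 8 from the 5′ end, which is in capitals below. Sequences are from RefSeq (GRCm38.p6). The arms shown are a selection of those that carry the stem cell seed, followed by the other seeds of the miR-17-92 cluster and a let-7 for contrast.
miR-290a-3p: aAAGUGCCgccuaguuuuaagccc
miR-291a-3p: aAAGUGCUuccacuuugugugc
miR-291b-3p: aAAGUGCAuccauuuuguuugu
miR-294-3p: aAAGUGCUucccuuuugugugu
miR-295-3p: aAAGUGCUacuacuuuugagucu
miR-302b-3p: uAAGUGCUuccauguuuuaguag
miR-17-5p: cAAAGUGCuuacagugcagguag
miR-20a-5p: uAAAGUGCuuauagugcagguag
miR-106b-5p: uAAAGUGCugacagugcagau
miR-18a-5p: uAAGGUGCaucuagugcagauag
miR-19a-3p: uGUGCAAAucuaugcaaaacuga
miR-19b-3p: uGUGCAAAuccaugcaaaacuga
miR-92a-3p: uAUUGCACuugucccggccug
let-7a-5p: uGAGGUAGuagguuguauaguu
In 9 of these 14 arms the seed holds the 6 letters AAGUGC. The arms shown of the miR-290 and miR-302 clusters have them at the start of the seed, and miR-17-5p, miR-20a-5p and miR-106b-5p have them shifted by 1 base. The seeds of miR-18a, miR-19, miR-92a and let-7a do not hold these letters. Nor do those of miR-293-3p and miR-302c-3p, arms of the first 2 clusters that are not shown.

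The values are reads per peak divided by 1 factor per library, as the authors deposited them (called deposited values below). Reads in peaks ran from 4434037 (control replicate 3) to 21161767 (control replicate 1), so 3 reads were worth between 1.04 and 5.08 in deposited value. A peak was called higher or lower where limma-trend on log2(value + 1) gave a Benjamini-Hochberg adjusted p under 0.05 over the 127402 peaks that averaged at least 10 in deposited value. All adjusted p-values below come from that fit unless another tool is named, and changes are differences on the log2(value + 1) scale, paused minus control. By this rule 11.0% of all tested peaks were higher in the paused libraries and 2.91% were lower. The median change over all tested peaks was 0.10, a shift that TMM scaling (a scaling that centres most peaks on no change) took away, so changes are to be read against 0.10. Of the 6 pluripotency genes checked, 6 had a peak within 2 kb of a gene end, with a median value of 239 for the strongest peak (37.8 at Esrrb to 344 at Pou5f1). The 5 fibroblast genes checked as feeder markers also had such peaks, with a median of 65.3 (32.4 to 156). Of 4 primitive endoderm genes 3 had one, between 55.5 and 123, and Gata4 had none. None of the fibroblast or endoderm peaks was called, while those of Esrrb and Zfp42 were called higher. Accessibility at a gene does not measure its expression, and the part of other cell types in the results was not tested.

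Among the members, 174 of the 187 peaks passed the filter on low values. Of these, 16 were higher in the paused libraries (9.20%, beside the 11.0% of all tested peaks) and 6 were lower (3.45%, beside 2.91%). The median change was 0.09, beside 0.10 over all tested peaks, and single changes ran from −1.19 to 0.99. The members therefore changed about as often, and in about the same proportion, as peaks anywhere in the table. The split between directions depended on the scaling: edgeR's quasi-likelihood test with TMM called 12 higher and 13 lower, where over all peaks it called 7.13% higher and 5.54% lower. After loess correction 5 were higher and 7 lower (5.10% and 3.50% over all peaks), and DESeq2 called 3 and 2 (3.06% and 1.49%). The groups did not overlap, all 4 paused values lying on 1 side of all 4 control values, at 17 peaks upward (13.0% over all tested peaks) and 11 downward (4.36%). Most higher calls were at strong peaks: of the 64 averaging 50 or more, 13 were higher (18.7% over all peaks of that strength) and 2 lower (1.35%). Of the 110 weaker ones, 3 were higher (6.67% over all weaker peaks) and 4 lower (3.76%). The authors' deposited table put 14 member peaks higher and 2 lower at its own FDR of 0.05 (9.19% and 1.80% over the whole table), and all 16 were among the 22 called here. The plot of change against peak strength shows the member peaks spread through the cloud of all tested peaks.

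**Figure D1:**
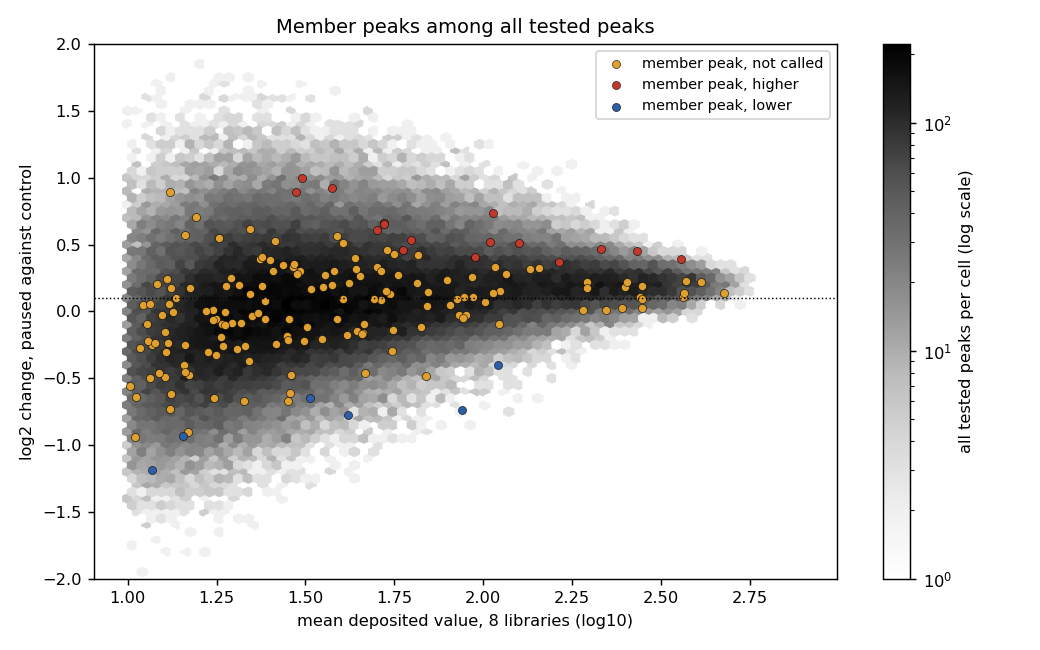
Change of each tested peak (y axis, log2 paused minus control) against its mean deposited value over the 8 libraries (x axis, log10). Grey cells count all 127402 tested peaks, dots are the 174 member peaks (16 higher in red, 6 lower in blue, the rest in orange), and the dotted line is the median change of all tested peaks, 0.10.

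No peak within 1 kb of the annotated start of a member gene was called. Within 1 kb of the annotated start (for Ago2, of either end of the gene, because its strand and start are not in the table used) 8 of the 9 genes had a tested peak. Of these 8 peaks limma-trend called 0, none had an unadjusted p under 0.05, and edgeR and DESeq2 called 0 too. Over all peaks that close to a listed start, limma-trend called 11.3% higher and 1.06% lower. Dgcr8 had the strongest of these peaks and Mir17hg the weakest. For 2 of the 8 the peak need not mark where the transcript begins. The annotated Mir17hg start lies after 4 of the 6 hairpins of its cluster, and the Ago2 peak may be at the far end of the gene. The called peaks of the members all lay farther away, inside the genes or between genes, as the map of changes along each gene shows.

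**Figure D2:**
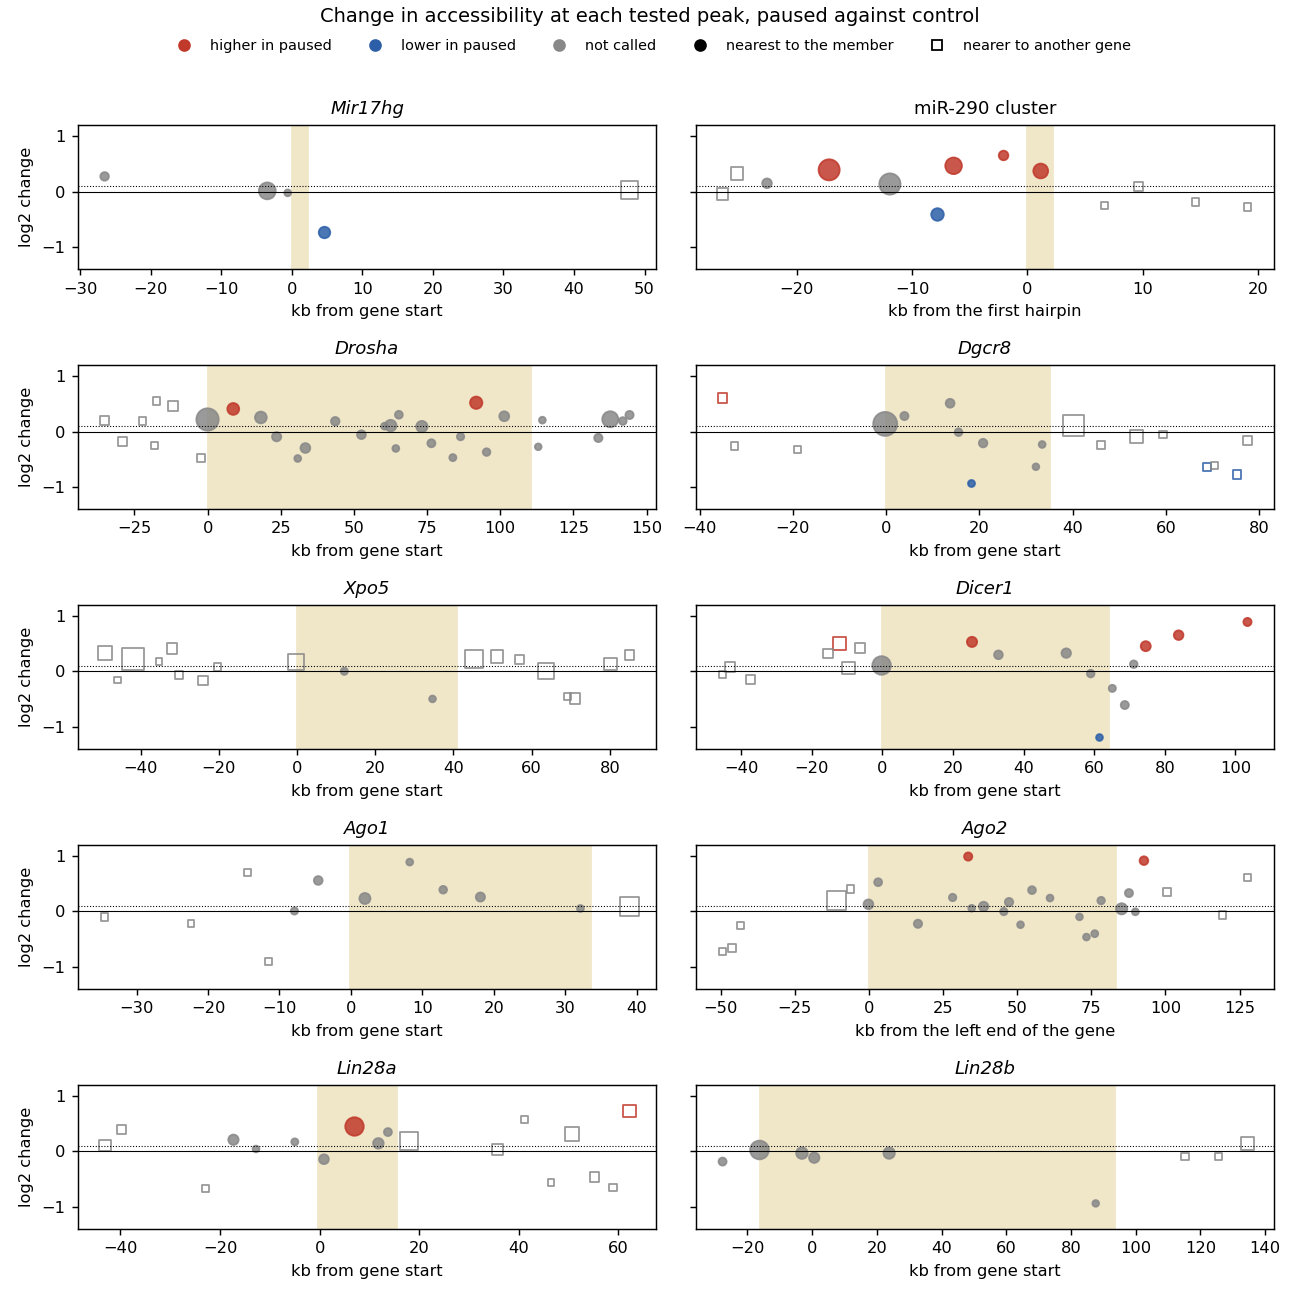
Change of each tested peak (y axis, log2 paused minus control) along the 9 genes and the miR-290 cluster (x axis, kb in the direction of transcription from the annotated start, from the first hairpin for miR-290, and from the left end for Ago2). The shaded band is the gene or hairpin cluster, circles are peaks nearest to it, squares are peaks nearer to another gene, symbol area grows with mean value, and the dotted line is the median of all tested peaks. Calls are scattered over the loci, and none lies within 1 kb of a member gene's annotated start (for Ago2, of either end).

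The microRNA genes themselves gave calls in both directions. The miR-17-92 cluster lies on chromosome 14, where the RefSeq span of its host gene Mir17hg (an lncRNA, chr14:115044390-115046728) begins after 4 of the 6 hairpins of the cluster, so distances are given here from the hairpins. A peak at chr14:115048884-115049084, 4478 bp beyond the last hairpin, Mir92-1, and 2256 bp beyond the annotated end, fell. Its control values were 85.39, 99.13, 132.08 and 121.97 and its paused values were 63.45, 77.29, 55.86 and 63.26. Every paused library was below every control library. The mean went from 110 ± 21.2 (SD, n = 4) to 65.0 ± 8.94 (SD, n = 4), a log2 change of −0.74 ± 0.15 (SE) with an adjusted p of 0.000794. The call was kept under every alternative tried, with changes from −0.92 to −0.64.

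The strongest peak assigned to the cluster was not called. That peak, singled out after its values were seen, lies at chr14:115040820-115041020, 2751 bp before the Mir17 hairpin. It read 182.53, 281.86, 193.03 and 226.3 in the control libraries and 265.32, 195.58, 251.36 and 178.08 in the paused ones. The groups overlapped throughout, with means of 221 ± 44.7 and 223 ± 42.3 (SD, n = 4 each), a change of 0.01 ± 0.13 (SE) and an adjusted p of 0.965. The value of the downstream peak over that of the upstream peak went from 0.511 ± 0.139 to 0.303 ± 0.0853 (SD, n = 4 each). The lowest control ratio, 0.352, was below the highest paused ratio, 0.395, so the ratios overlapped. A weak peak at chr14:115043714-115043914 covers part of the Mir17 and Mir18 hairpins. It averaged 12.9 ± 5.24 in control and 12.1 ± 4.05 in paused libraries (SD, n = 4 each; adjusted p = 0.974). Its control replicate 3 held only 3 reads. Mir17hg had 5 peaks in its window in all. Of these 1 was called lower and 0 higher, beside 2.91% and 11.0% of all tested peaks.

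The miR-290 cluster (Mir290a to Mir295, chr7:3218626-3220841) sat among many peaks. It overlaps the annotated spans of Nlrp12, a gene of innate immunity, and of the lncRNA D7Ertd143e. The window of 50 kb held 13 peaks, a number reached by 0.970% of 50 kb bins of the genome (mean 2.545 per bin). All 13 were tested: 4 were higher, 1 was lower and 8 were not called. Over all tested peaks 11.0% were higher and 2.91% lower. The called peaks of the window averaged more than 50, and over all peaks averaging 50 or more 18.7% were higher and 1.35% lower. The 5 calls stood between 17187 bp before the first hairpin and the inside of the cluster. The 4 peaks beyond the last hairpin, all weak and inside Nlrp12, had means between 16.5 and 41.5 and were not called.

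Going from the far upstream side towards the hairpins, the first called peak (chr7:3201339-3201539, 17187 bp before) had control values of 287.62, 285.45, 309.87 and 364.44 and paused values of 351.84, 435.33, 449.96 and 400.68. It was higher in the paused group, at 409 ± 43.6 against 312 ± 36.8 (SD, n = 4 each), although 1 control library exceeded 1 paused library. The change was 0.39 ± 0.11 (SE) with an adjusted p of 0.0113. This call was lost with edgeR and TMM, with DESeq2, and in limma-trend after TMM rescaling or loess correction, with adjusted p-values of 0.0530 to 0.204. Its neighbour 11920 bp before the hairpins (chr7:3206606-3206806) was about as strong, at 349 ± 49.2 and 384 ± 55.3 (SD, n = 4 each), and its change of 0.14 ± 0.11 (SE) had an adjusted p of 0.447.

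The next pair of peaks, 1415 bp apart, were called in opposite directions. At chr7:3210711-3210911, 7815 bp before the hairpins, control values were 104.75, 142.13, 120.22 and 135.19 and paused values were 94.59, 89.90, 88.44 and 104.27. At chr7:3212126-3212326, 6400 bp before, control values were 187.02, 197.07, 154.09 and 179.28 and paused values were 298.77, 214.51, 229.64 and 253.06. In neither peak did the groups overlap. The first fell from 126 ± 16.6 to 94.3 ± 7.15 (SD, n = 4 each), a change of −0.40 ± 0.13 (SE; adjusted p = 0.0346). The second rose from 179 ± 18.4 to 249 ± 36.8 (SD, n = 4 each), a change of 0.47 ± 0.12 (SE; adjusted p = 0.00636). The ratio of the first peak to the second, which does not depend on the scaling of a library, was 0.560, 0.721, 0.780 and 0.754 in the control libraries and 0.317, 0.419, 0.385 and 0.412 in the paused ones. This pair was chosen after its values were seen, so the ratio is a description and has no test. The fall was lost with DESeq2 (adjusted p = 0.0531) and when control replicate 2, 3 or 4 or paused replicate 1, 2 or 3 was left out (adjusted p = 0.0522 to 0.108). The rise was lost with DESeq2 and after loess correction (adjusted p = 0.0939 to 0.147) and was kept whichever library was left out.

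Closest to the hairpins were 2 peaks called higher. The weaker one (chr7:3216458-3216658, 2068 bp before) went from 40.3 ± 7.12 to 64.6 ± 14.6 (SD, n = 4 each), a change of 0.65 ± 0.18 (SE; adjusted p = 0.0133). It was not called with DESeq2 or after loess correction, nor without control replicate 4, paused replicate 1 or paused replicate 4 (adjusted p = 0.0538 to 0.0667 without a library). Inside the cluster, a peak at chr7:3219679-3219879, 219 bp from Mir291b, had control values of 144.16, 125.41, 162.56 and 138.13 and paused values of 184.57, 190.85, 195.5 and 166.36. All paused values were above all control values, and the means were 143 ± 15.5 and 184 ± 12.8 (SD, n = 4 each; change 0.37 ± 0.12 SE; adjusted p = 0.0300). That call was the less firm of the pair: it was lost under TMM scaling (edgeR and limma-trend), DESeq2 and loess correction (adjusted p = 0.128 to 0.391). It was also lost without control replicate 1, 2 or 4 or paused replicate 1, 2 or 3 (adjusted p = 0.0527 to 0.0891).

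**Figure D3:**
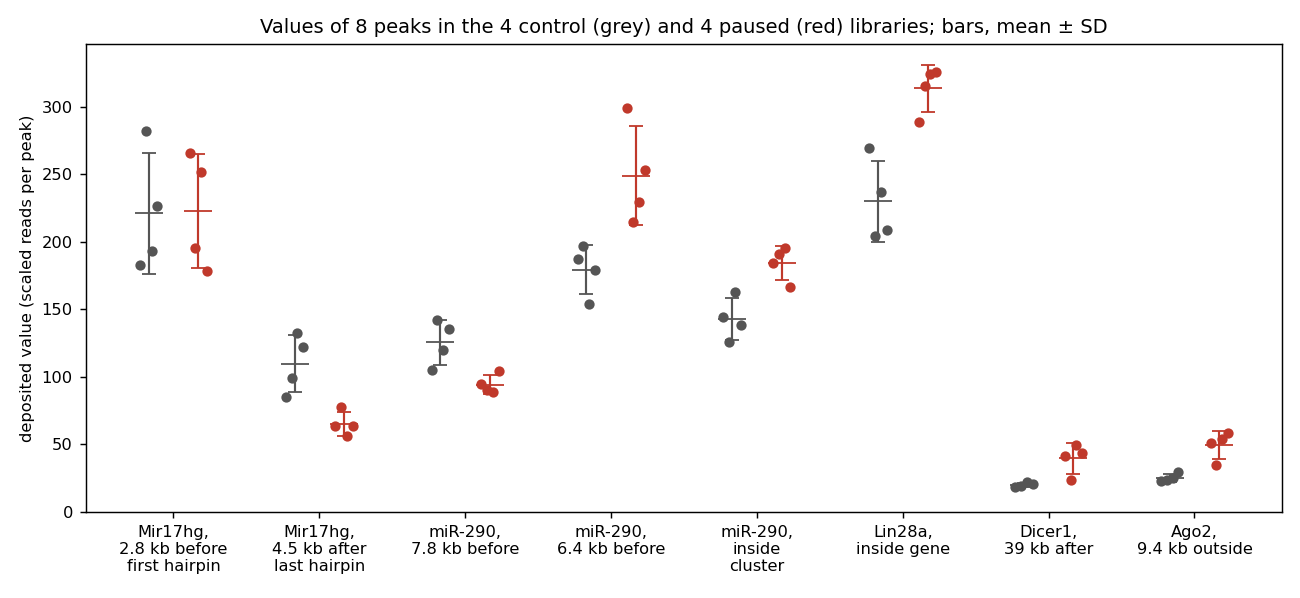
Deposited values (y axis, scaled reads per peak) of 8 member peaks in each control (grey) and paused (red) library, with mean and SD bars (n = 4 per group). The peak after the miR-17-92 hairpins and the one 7815 bp before the miR-290 hairpins are lower in the paused libraries, the first peak shown overlaps, and the other 5 are higher.

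The Microprocessor genes had the highest deposited values at their start peaks. At Drosha, the nuclease, the start peak (chr15:12824678-12824878, 37 bp before the start) read 330.83, 367.86, 421.63 and 387.95 in control and 364.53, 419.55, 532.2 and 447.54 in paused libraries. The groups overlapped, and the change of 0.22 ± 0.11 (SE) had an adjusted p of 0.181. The centre of this peak also lies 99 bp from 6030458C11Rik, a neighbouring protein-coding gene, so the peak cannot be given to Drosha alone. At Dgcr8, the RNA-binding partner, the start peak (chr16:18289244-18289444, 176 bp before the start) averaged 452 ± 50.4 and 498 ± 68.7 (SD, n = 4 each; change 0.14 ± 0.11 SE; adjusted p = 0.411). Both promoters overlap these peaks, and both hold several copies of CCAAT, the core letters of a box common in promoters. The 250 bases before each start are shown with CCAAT, or ATTGG where it is on the other strand, in capitals.
Drosha (chr15:12824565-12824814, plus strand): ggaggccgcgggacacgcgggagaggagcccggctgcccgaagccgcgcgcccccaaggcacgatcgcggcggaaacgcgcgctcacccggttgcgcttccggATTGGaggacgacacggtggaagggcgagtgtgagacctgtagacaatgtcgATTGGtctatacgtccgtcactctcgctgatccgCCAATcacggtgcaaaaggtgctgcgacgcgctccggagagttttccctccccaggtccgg
Dgcr8 (chr16:18289169-18289418, minus strand): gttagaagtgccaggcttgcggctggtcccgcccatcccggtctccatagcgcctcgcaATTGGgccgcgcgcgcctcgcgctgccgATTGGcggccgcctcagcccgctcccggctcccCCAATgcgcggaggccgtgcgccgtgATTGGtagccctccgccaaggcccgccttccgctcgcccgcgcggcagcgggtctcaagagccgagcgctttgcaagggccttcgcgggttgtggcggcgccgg
Drosha holds CCAAT 3 times and Dgcr8 4 times on either strand, and 37.4% of the 32851 promoters in the RefSeq table (GRCm38.p6) hold it at least once. Both are dense in CpG, with 37 and 43 CpG in 300 bases beside a median of 7 over all promoters. A match of letters is a description of the sequence, not a bound site.

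In the Drosha window 2 of 32 tested peaks were called higher and 0 lower, beside 11.0% and 2.91% of all tested peaks. Both called peaks lay inside the gene. At an unadjusted p under 0.05, 1 peak of the window was lower, edgeR with TMM called 1 lower, and DESeq2 called 0. The firmer of the higher calls, chr15:12916492-12916692, lies 91777 bp into the gene. In control libraries it read 88.84, 89.58, 71.12 and 95.52 and in paused ones 121.12, 121.45, 122.58 and 128.87, with no overlap. The mean rose from 86.3 ± 10.5 to 124 ± 3.63 (SD, n = 4 each), a change of 0.52 ± 0.13 (SE; adjusted p = 0.00615), and the call was lost with DESeq2 and after loess correction (adjusted p = 0.104 to 0.120). The other, chr15:12833464-12833664, averaged 81.5 ± 11.5 and 108 ± 9.49 (SD, n = 4 each; change 0.41 ± 0.14 SE; adjusted p = 0.0407). It was not called by either edgeR fit, by DESeq2, under TMM rescaling or after loess correction (adjusted p = 0.0634 to 0.428). Leaving out control replicate 2, 3 or 4 or paused replicate 1, 2 or 4 also ended that call (adjusted p = 0.0592 to 0.131).

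Around Dgcr8, 3 of 19 tested peaks were called lower and 1 higher, beside 2.91% and 11.0% of all tested peaks, and the median change was −0.21, beside 0.10. The peaks of this window were mostly weak, with a median mean value of 25.2, beside 32.3 over all peaks. All 3 lower ones averaged under 50, and over all tested peaks that weak 6.67% were higher and 3.76% lower. Only 1 of the 4 calls around Dgcr8 was kept under every alternative that tested it. The one call nearest to the gene itself was a weak peak at chr16:18270865-18271065, inside the gene. It averaged 19.2 ± 5.17 in control and 9.44 ± 1.94 in paused libraries (SD, n = 4 each; change −0.93 ± 0.32 SE; adjusted p = 0.0422). That call held without paused replicate 4 but was lost without any 1 of the other 7 libraries (adjusted p = 0.0506 to 0.140), and with DESeq2, edgeR on the deposited factors and loess correction. The firmest call, chr16:18213801-18214001, lies 40047 bp beyond Dgcr8 and 326 bp from Ccdc188. Its control values were 56.69, 58.52, 55.88 and 41.15 and its paused values were 34.61, 31.55, 26.38 and 29.29. All paused values were below all control values, the mean fell from 53.1 ± 8.02 to 30.5 ± 3.48 (SD, n = 4 each), and the change of −0.77 ± 0.18 (SE; adjusted p = 0.00389) was kept under every alternative tried. Its control replicate 4 stood apart from the other 3, on the side of the paused values. A further peak near Ccdc188 (chr16:18220281-18220481, named after its values were seen) was called lower, at −0.65 ± 0.20 (SE; adjusted p = 0.0298). That call was lost with DESeq2 and without control replicate 1, 2 or 4 or paused replicate 2, 3 or 4 (adjusted p = 0.0601 to 0.0893 without a library). One inside Tango2 (chr16:18324125-18324325) was called higher, at 0.61 ± 0.19 (SE; adjusted p = 0.0266). It was lost with DESeq2, under TMM rescaling and after loess correction, and without control replicate 2 or 3 or paused replicate 2 or 4 (adjusted p = 0.0561 to 0.144 without a library).

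Xpo5, the exporter, had 0 peaks called by limma-trend among 19 tested, beside 11.0% higher and 2.91% lower over all tested peaks. At an unadjusted p under 0.05 there were 5 higher and 1 lower. edgeR called 1 of them lower with TMM and 1 higher with the deposited factors, and DESeq2 called 0. The peak at its start (chr17:46202541-46202741) is centred 170 bp before the Xpo5 start and inside Polh, a DNA polymerase gene, so it cannot be given to 1 of the 2 genes. It read 172.85, 188.71, 184.57 and 186.63 in control and 196.11, 195.58, 242.05 and 198 in paused libraries. All 4 paused values were above all 4 control values, yet the change of 0.18 ± 0.11 (SE; adjusted p = 0.307) did not pass. The promoter under this peak carries a 10-letter palindrome, GCGCATGCGC, in 2 places (in capitals), each holding CATGCGC, a part of the motif of the factor NRF1, on both strands.
Xpo5 (chr17:46202561-46202810, plus strand): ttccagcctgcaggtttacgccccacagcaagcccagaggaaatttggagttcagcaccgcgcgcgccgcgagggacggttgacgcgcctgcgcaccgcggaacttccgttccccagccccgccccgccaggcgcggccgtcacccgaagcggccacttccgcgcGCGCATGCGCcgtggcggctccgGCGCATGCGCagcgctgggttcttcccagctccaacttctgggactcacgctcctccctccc
Of all 32851 promoters, 3.91% hold CATGCGC on either strand, and of the 8 genes with a promoter in that table only Xpo5 did. E-box letters (CACGTG, the core that Myc binds, on either strand) were found only in the Lin28b promoter, beside 7.15% of all promoters. For Mir17hg these searches say nothing of the sequence before the hairpins. Its window (chr14:115044140-115044439) follows the annotated start and overlaps the Mir20a hairpin, so sequence before the first hairpin was not searched. The 3 peaks with no protein-coding gene nearer than Xpo5 were weak and do not include the start peak, which is centred inside Polh. Their summed value went from 32.8 ± 7.96 to 29.5 ± 6.26 (SD, n = 4 each).

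Dicer1, which makes the final cut, had 5 of 19 tested peaks called higher and 1 lower, beside 11.0% and 2.91% of all tested peaks. Of these 6 calls, 1 lay inside Clmn and 1 was kept under every alternative that tested it. None was its start peak (chr12:104752081-104752281, 229 bp before the start), which averaged 264 ± 19.6 and 287 ± 38.9 (SD, n = 4 each; change 0.11 ± 0.11 SE; adjusted p = 0.551). Of the higher ones 3 lay beyond the end of the gene. The farthest, chr12:104648438-104648638, lies 39202 bp beyond Dicer1, its nearest protein-coding gene, and 12886 bp from the lncRNA gene Gm31573. Its control values were 18.67, 19.11, 22.01 and 20.57 and its paused values were 41.53, 23.66, 49.65 and 43.35. All paused values were higher, with paused replicate 2 close to the control values. The mean rose from 20.1 ± 1.52 to 39.5 ± 11.1 (SD, n = 4 each), a change of 0.90 ± 0.23 (SE; adjusted p = 0.00664) that was kept under every alternative tried.

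The other higher peaks around Dicer1 were less firm. The peak 19695 bp beyond the gene (chr12:104667945-104668145), which is 5348 bp from Gm31573, rose from 40.7 ± 9.04 to 64.4 ± 10.4 (SD, n = 4 each; change 0.66 ± 0.18 SE; adjusted p = 0.00966). A peak inside Clmn, the neighbour upstream (chr12:104764013-104764213), rose from 104 ± 7.72 to 149 ± 21.5 (SD, n = 4 each; change 0.51 ± 0.13 SE; adjusted p = 0.00612) with no overlap. Both calls were lost with DESeq2 and after loess correction, with adjusted p-values of 0.0653 to 0.123 and of 0.0785 to 0.114. Inside Dicer1, chr12:104726472-104726672 went from 50.8 ± 4.55 to 74.8 ± 13.5 (SD, n = 4 each; change 0.54 ± 0.16 SE; adjusted p = 0.0209). It was not called with DESeq2, TMM rescaling or loess correction, nor without control replicate 1, paused replicate 2 or paused replicate 4 (adjusted p = 0.0591 to 0.0850 without a library). The last 2 calls, named after their values were seen, were near the threshold. The peak at chr12:104677260-104677460 was higher by 0.46 ± 0.16 (SE; adjusted p = 0.0499) and the weak peak at chr12:104690573-104690773, inside the gene, lower by −1.19 ± 0.41 (SE; adjusted p = 0.0470). The first was lost without control replicate 1, 3 or 4 or paused replicate 1, 2 or 4 (adjusted p = 0.0855 to 0.139), and also with edgeR under TMM, TMM rescaling, a pseudocount of 0.1 and no filter. The second was lost with a pseudocount of 0.1 and without control replicate 1, 3 or 4 or paused replicate 1 or 3 (adjusted p = 0.0667 to 0.200 without a library), and its paused replicate 3 held a value of 1.55. DESeq2 and loess correction called neither.

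Calls at the 2 Argonaute genes stand beside 11.0% higher and 2.91% lower over all tested peaks. A difference between the 2 genes was not tested. Ago1 had no peak within 1 kb of its start and 0 calls by limma-trend among 12 tested peaks, where the lowest adjusted p was 0.0535. At an unadjusted p under 0.05 there were 3 higher and 1 lower, edgeR called 1 lower with TMM and 1 higher with the deposited factors, and DESeq2 called 0. Its strongest own peak, named after its values were seen (chr4:126466532-126466732, 1951 bp into the gene), averaged 72.4 ± 9.87 and 85.7 ± 14.1 (SD, n = 4 each; change 0.23 ± 0.15 SE; adjusted p = 0.309). Summed over its 7 own peaks, Ago1 was at 204 ± 21.4 in control and 256 ± 14.2 in paused libraries (SD, n = 4 each). That is 1.25 times as high, beside 1.12 for all peaks of the table. Ago2, the Argonaute that can itself cut the target, had 2 of 28 tested peaks called, both higher. Another 2, both inside Trappc9, were lower at an unadjusted p under 0.05 and were called lower by edgeR with TMM. Of those, 1 was also called by edgeR with the deposited factors and neither by DESeq2. The first higher peak (chr15:73194262-73194462) lies 9415 bp outside the gene, with Ptk2 the next nearest protein-coding gene, 10740 bp away. It read 22.82, 23.89, 25.40 and 29.39 in control libraries and, in paused ones, 50.76, 34.70, 54.31 and 58.58. With no overlap, the mean rose from 25.4 ± 2.88 to 49.6 ± 10.4 (SD, n = 4 each), a change of 0.92 ± 0.20 (SE; adjusted p = 0.00163) kept under every alternative tried. The second, chr15:73135010-73135210 inside the gene, read 17.28, 35.83, 11.85 and 20.57 in control and 42.68, 33.12, 43.44 and 43.35 in paused libraries. There control replicate 2 was above paused replicate 2. The change of 0.99 ± 0.24 (SE; adjusted p = 0.00479) was lost with DESeq2 (adjusted p = 0.0654). The Ago2 peak nearest an end of the gene (chr15:73101375-73101575) averaged 52.3 ± 6.00 and 57.2 ± 4.79 (SD, n = 4 each; change 0.13 ± 0.16 SE; adjusted p = 0.635).

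Of Lin28a and Lin28b, the repressors of let-7, the first had 2 called peaks, both higher, of 18 tested. Over all tested peaks 11.0% were higher and 2.91% lower. At Lin28a a strong peak inside the gene (chr4:134011826-134012026, 6890 bp after the start) was higher in the paused libraries. Its control values were 269.30, 204.23, 237.06 and 208.67 and its paused values were 288.39, 315.45, 324.28 and 325.70. The groups did not overlap, and the mean rose from 230 ± 30.1 to 313 ± 17.3 (SD, n = 4 each), a change of 0.45 ± 0.11 (SE; adjusted p = 0.00431). DESeq2 and loess correction did not call it (adjusted p = 0.104 to 0.126). The weaker peak at the start (chr4:134017846-134018046, 870 bp after it) averaged 58.6 ± 12.7 and 52.7 ± 9.67 (SD, n = 4 each; change −0.14 ± 0.18 SE; adjusted p = 0.638). The other call in the window, chr4:133956483-133956683, lies 46747 bp beyond Lin28a and 8156 bp from Hmgn2, a nucleosome-binding protein gene. It read 87.81, 90.77, 62.65 and 76.41 in control and 166.11, 134.07, 100.85 and 132.39 in paused libraries. The mean rose from 79.4 ± 12.8 to 133 ± 26.7 (SD, n = 4 each) with no overlap, and the change of 0.73 ± 0.15 (SE; adjusted p = 0.000644) was kept under every alternative tried.

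Lin28b had 0 calls by limma-trend among 9 tested peaks, beside 11.0% higher and 2.91% lower over all tested peaks. Its lowest adjusted p was 0.127, and edgeR and DESeq2 called 0 as well. At an unadjusted p under 0.05 there was 1 lower peak, and 7 of the 9 changes were below 0. Its strongest peak (chr10:45486381-45486581, 167 bp beyond the upstream end of the annotated span, named after its values were seen) read 217.44, 320.08, 287.86 and 283.61 in control libraries. The paused values were 336.84, 222.4, 305.66 and 267.12, so the groups overlapped throughout. The change was 0.03 ± 0.12 (SE; adjusted p = 0.913). The start peak (chr10:45469458-45469658) averaged 69.4 ± 7.03 and 64.7 ± 12.3 (SD, n = 4 each; change −0.11 ± 0.16 SE; adjusted p = 0.675). Whether Lin28a and Lin28b differed in their response was not tested. The sums over the peaks nearest to each member place Lin28a at 1.23 and Lin28b at 0.977 times the control mean, beside 1.12 for all peaks of the table. The mean Lin28a sum went from 463 in control to 569 in paused libraries. Most of that gain was in the called peak inside the gene, which went from 230 to 313.

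**Figure D4:**
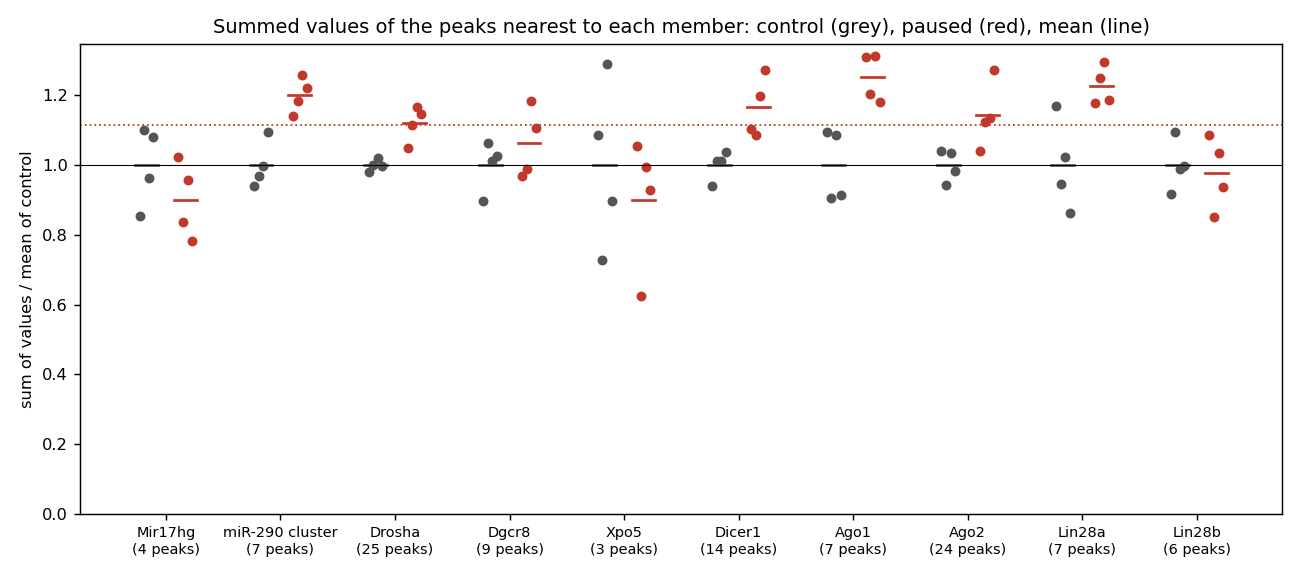
Summed deposited values of the peaks nearest to each member (y axis, relative to the mean of the 4 control libraries), 1 dot per library (control grey, paused red, n = 4 each) with the mean as a line. The dotted line is the same ratio for all peaks of the table, 1.12, and the paused means run from 0.900 (Mir17hg) to 1.25 (Ago1). The Xpo5 start peak, centred inside Polh, is not in the Xpo5 sum.

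Of the 22 called member peaks, 5 were kept under every alternative that tested them (a minimum mean value of 50 leaves weaker peaks untested): those after the miR-17-92 hairpins, near Ccdc188 beside Dgcr8, beyond Dicer1, outside Ago2 and near Hmgn2 beside Lin28a. None of the 5 lay within 1 kb of a member's annotated start (for Ago2, of either end). The peak near Ccdc188 was centred 38 bp from the listed start of 4933432I09Rik. Which gene any of them acts on was not tested.

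The other genes of the pathway, a list of 20 (partners of Dicer1 and the Argonautes, RNA helicases, let-7 uridylation and decay), had 158 peaks within 50 kb for which they were the nearest protein-coding gene. Of 153 tested, 10 were higher (6.54%) and 7 lower (4.58%), beside 11.0% and 2.91% of all tested peaks, with a median change of 0.09. Higher peaks stood at 5 of these genes and lower ones at 4. A start peak was found at 19 of them. Of those, 1 was called higher, beside 11.3% higher and 1.06% lower over all peaks within 1 kb of a listed start. The called start peak, at Tnrc6c, a scaffold that binds Argonautes, went from 287 ± 36.5 to 359 ± 32.0 (SD, n = 4 each; change 0.32 ± 0.11 SE; adjusted p = 0.0385). That call was lost with edgeR under TMM, DESeq2, TMM rescaling and loess correction, and without control replicate 1, 3 or 4 or paused replicate 1, 2 or 4 (adjusted p = 0.0559 to 0.118 without a library). The peaks named next were picked after their values were seen.

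Dis3l2, the nuclease that degrades let-7 precursors tailed after Lin28a binding, held the peak with the smallest adjusted p of the list. It lies at chr1:86719407-86719607, inside the gene. Its control values were 29.73, 25.08, 20.32 and 29.39 and its paused values were 58.83, 78.86, 86.89 and 70.29. The mean rose from 26.1 ± 4.41 to 73.7 ± 12.0 (SD, n = 4 each), a change of 1.46 ± 0.18 (SE; adjusted p = 1.2e-06) with no overlap. Tut7, a uridylyl transferase of the same route, had 2 of 10 tested peaks called higher, and Tut4, its partner, had 1 peak, not called. These counts, and that of Trim71 below, stand beside 11.0% higher and 2.91% lower over all tested peaks. A peak 24278 bp from the Tnrc6c start (chr11:117629911-117630111) rose from 16.4 ± 7.96 to 43.8 ± 13.4 (SD, n = 4 each; change 1.45 ± 0.28 SE; adjusted p = 0.000437). Trim71, a let-7 target and RNA-binding ubiquitin ligase, had 1 of 14 peaks called, inside the gene, from 129 ± 15.3 to 183 ± 19.6 (SD, n = 4 each; change 0.50 ± 0.12 SE; adjusted p = 0.00465). That call was lost with DESeq2 and after loess correction (adjusted p = 0.0592 to 0.0997). Tnrc6a, another Argonaute scaffold, had 4 of 17 tested peaks lower and 0 higher, beside 2.91% and 11.0% of all tested peaks. The one with the smallest adjusted p, chr7:123182261-123182461, fell from 20.9 ± 3.22 to 7.80 ± 2.37 (SD, n = 4 each; change −1.34 ± 0.32 SE; adjusted p = 0.00419). The Dis3l2, Tnrc6a and distal Tnrc6c calls were kept under every alternative tried.

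Other microRNA loci gave few calls. Within 10 kb of the miR-302 cluster, the miR-106a and miR-106b clusters and the let-7 genes, a list of 21 genes of which 19 had a peak, 34 peaks were tested. Of these, 1 was higher (2.94%, beside 11.0% of all tested peaks) and 0 were lower (beside 2.91%), with a median change of 0.09. At an unadjusted p under 0.05 the list had 4 higher and 1 lower, and edgeR with TMM called 0 higher and 1 lower, while DESeq2 called 0. The called peak, near Mirlet7e (chr17:17838147-17838347), went from 320 ± 32.2 to 404 ± 50.4 (SD, n = 4 each; change 0.33 ± 0.11 SE; adjusted p = 0.0324). The 4 peaks around the miR-302 cluster were not called. The smallest adjusted p there, 0.0661, went with a change of 0.28 ± 0.10 (SE).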

How the data were processed

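ATAC-seq was measured in 4 control and 4 paused libraries of E14 cells with 150 bp paired-end reads. Per the submitters' processing notes, the tools included FastQC, Trim Galore, Bowtie2 2.4.1, MACS3 3.0.3 and DiffBind 3.16.0, with the mm10 build. The handling of the Tn5 offset, duplicates and mitochondrial reads is not given in the sources used here. The authors deposited 1 table of 134407 peaks of 201 bp, shared by all libraries, with a signal per peak and library: reads divided by 1 factor per library, rounded. The deposited table also gives log2 concentrations and log2 fold changes, and the authors' p-value and FDR for each peak. Whole reads were recovered by dividing by the value of 1 read, and 100% of values came out whole within 0.011 value units. No per-sample column was left unused.

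Groups and replicate numbers came from the sample titles. Because the values are scaled reads, the test was limma-trend (limma 3.58.1, R 4.3.3) on log2(value + 1) for peaks averaging at least 10, over the whole table, with Benjamini-Hochberg adjustment and a threshold of 0.05. It was run on simulated data first. The changes planted there were larger than most of those reported here and only at peaks of at least median strength. How well smaller changes, or changes at weaker peaks, are called was therefore not checked. Alternatives used the recovered reads with edgeR 4.0.16 (quasi-likelihood, TMM or deposited factors) or DESeq2 1.42.0, and limma-trend after TMM rescaling or a loess correction of each library on peak strength (span 0.3). Further ones were pseudocounts of 0.1 and 5, no filter, a mean value of at least 50, a replicate block, leaving out each library, a window of 10 kb, and only peaks nearest to the member.

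Gene spans were from a RefSeq table for GRCm38.p6, which holds neither exons nor, for Ago2, a strand, so exon and intron were not analysed here. Distances run from peak centres to the nearest end of a gene span or hairpin, and the nearest gene was sought among protein-coding genes and the members. The peaks named are, for each gene, the strongest within 1 kb of the start, up to 3 called peaks nearest to it and up to 2 called peaks nearer to another gene, by adjusted p, and all peaks at miR-290. Members and lists were chosen with earlier results of these data known, so no list has a test. Promoter motifs were searched in the 300 bases from 250 before to 50 after each listed start. Peak sequences were not analysed here. Depth ran from 4434037 to 21161767 reads in peaks per library. Intervals are not given for single values, since replicates carry the error.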

Additional observations from a re-analysis of the deposited data

Results flagged for a closer look

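Among the 92 groups of 4 libraries behind the named peaks, 5 had 1 library far from the other 3 by Dixon's criterion at the 95% level, and chance alone gives about 1 in 20. At the peak over the Mir17 and Mir18 hairpins, control replicate 3 had a value of 5.08 and the others 14.69 to 16.25. Inside Dicer1 (chr12:104726472-104726672), control replicate 3 read 57.57 and the others 48.05 to 48.97. Near Ccdc188 beside Dgcr8 (chr16:18213801-18214001), control replicate 4 read 41.15 and the others 55.88 to 58.52. Inside Ago2 (chr15:73135010-73135210), paused replicate 2 read 33.12 and the others 42.68 to 43.44. At the Xpo5 start, paused replicate 3 read 242.1 and the others 195.6 to 198.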

How the results depend on the processing

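Of the 22 called member peaks, 20 were kept by edgeR with the deposited factors, 18 by edgeR with TMM, 16 after TMM rescaling, 8 after loess correction and 5 with DESeq2. No called peak changed sign under any alternative. Whichever library was left out, 12 of the 22 were kept, with 11 to 17 member peaks called higher and 2 to 6 lower. Member peaks called lower numbered 13 with edgeR and TMM, with a median change of −0.0379. DESeq2 called 3 higher and 2 lower (median −0.0199), TMM rescaling 10 and 10 (median −0.0133), and loess correction 5 higher (median −0.0232). With a mean value of at least 50, 2 were lower and the median was 0.1804. A window of 10 kb held 9 higher ones. The cause of these differences was not tested, other than the fewer peaks in the last 2. The replicate block gave 18 higher and 8 lower and kept all 22 calls. The sample titles give only replicate numbers. Correlations of same-numbered libraries, taken on deviations from the group means, were 0.0790, 0.0358, 0.133 and 0.0395. The highest correlations of the same control libraries with a paused library of another number were 0.0617, 0.0703, −0.0113 and 0.0196. Whether the numbers mark a pairing was not tested.

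Among peaks not called, signs changed as follows. The peak before Mir17 had changes of −0.0754 (edgeR with TMM), −0.0883 (DESeq2), −0.0899 (TMM rescaling), −0.195 (loess) and −0.0788 to 0.135 without a library. The strongest Lin28b peak had −0.0423, −0.0594, −0.0753 and −0.182 in the same order, and −0.0852 to 0.136 without a library. At miR-290 the peak 7411 bp after the hairpins had −0.0639, −0.0503, −0.00393 and −0.0231, and −0.04 to 0.218 without a library. The peak 26425 bp before them had −0.188 to 0.123 without a library. The peak over Mir17 and Mir18 had 0.158 after loess correction and −0.384 to 0.151 without a library. Loess correction also gave −0.0992 at the Dicer1 start, −0.0716 at the Dgcr8 start, −0.0198 at the Ago2 end, −0.0294 at the Xpo5 start and −0.0726 at the miR-290 peak 11920 bp before the hairpins. Depth limits weak peaks most: 3 reads were worth 5.08 in control replicate 3, beside the minimum mean value of 10.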
